A study of Mus musculus with 6 samples.

Results

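LIF and STAT3 signalling genes were examined in the H3K27ac peaks of control mouse embryonic stem cells (mESCs). H3K27ac, acetylation of histone H3 at lysine 27, is found at active promoters and enhancers. The 10 genes were chosen by name: the ligand Lif, the receptor chains Lifr and Il6st, the kinase Jak1, the transcription factor Stat3, and Socs3, Pim1, Pim3, Gbx2 and Bcl3, which are known as genes downstream of STAT3. They are 10 of 27706 protein-coding and lincRNA genes, and all are among the 21853 protein-coding genes.

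The study asked whether H3K27ac depends on ongoing transcription. It measured H3K27ac by ChIP-seq in 3 groups of 2 samples each: control cells (DMSO), cells given NVP-2 (an inhibitor of the elongation kinase CDK9, 100 nM) and cells given ActD (actinomycin D, an inhibitor of transcription, labelled 800 nM), both for 2 h. All groups were mESCs labelled E14 (E14Tg2A in the growth protocol, ES-E14TG2a in the study's methods), grown in N2B27 medium with 1000 units per mL of LIF, 1 µM PD0325901 (a MEK inhibitor) and 3 µM CT-99021 (a GSK3 inhibitor), and all carried human HEK293T chromatin as a spike-in. The labels name a Cre gene in the Rosa26 locus and a puromycin resistance gene tied to Oct4 in these cells, and the data describe this 1 line. LIF was therefore in the medium of every sample, the controls included.

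The data used here are the positions of 22973 control peaks, given as one list for both control samples, with no height, count or score. Hence no value has a replicate error, no treated cells are compared and no p-value is given. The counts below describe positions, beside the same counts over all genes. A gene is called marked where a peak touches the 1 kb on either side of a transcription start site (TSS) of any of its isoforms. Of the fixed markers of cell identity, 6 of 6 ESC genes were marked, each by a TSS peak of at least 10 kb (median 28860 bp). Markers of other lineages were marked in 2 of 4 primitive endoderm genes (Gata6 and Gata4), 1 of 4 trophoblast genes (Eomes), 1 of 3 neural genes (Sox1) and 1 of 3 mesoderm genes (Kdr), by peaks between 1183 and 3136 bp wide. Among all protein-coding genes 51.0% were marked, and 11.3% of those had a TSS peak of at least 10 kb. A share of other cells in the cultures was not tested.

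As background, LIF is a cytokine of the interleukin-6 family. It joins the LIF receptor to gp130, the product of Il6st and the signal transducing chain that the family shares. Janus kinases bound to these chains, JAK1 among them, phosphorylate STAT3, which dimerises, enters the nucleus and binds DNA, usually at the palindrome TTCNNNGAA. In mESCs this pathway sustains self-renewal, and Socs3, one of its targets, encodes an inhibitor that closes a feedback loop on the receptor and its kinases.

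All 10 genes were marked at a TSS. Among all protein-coding and lincRNA genes 43.6% were marked, and among protein-coding genes the 51.0% given above. Where the midpoint of a peak, rather than any base of it, had to lie within 1 kb of a TSS, an alternative chosen after seeing the data, 6 of 10 genes and 38.2% of protein-coding genes were marked. The genes had 51 peaks in all: 12 at a TSS, 4 elsewhere in a gene body and 35 outside the gene but within 50 kb of its ends. Gene body peaks were found in 2 of 10 genes, Lif and Lifr, where 19.3% of protein-coding genes have one. Peaks within 50 kb were found around 10 of 10, against 67.5% of protein-coding genes. Each gene had 1 to 8 such nearby peaks (median 2), and the median of marked protein-coding genes was 2 as well.

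**Figure D1:**
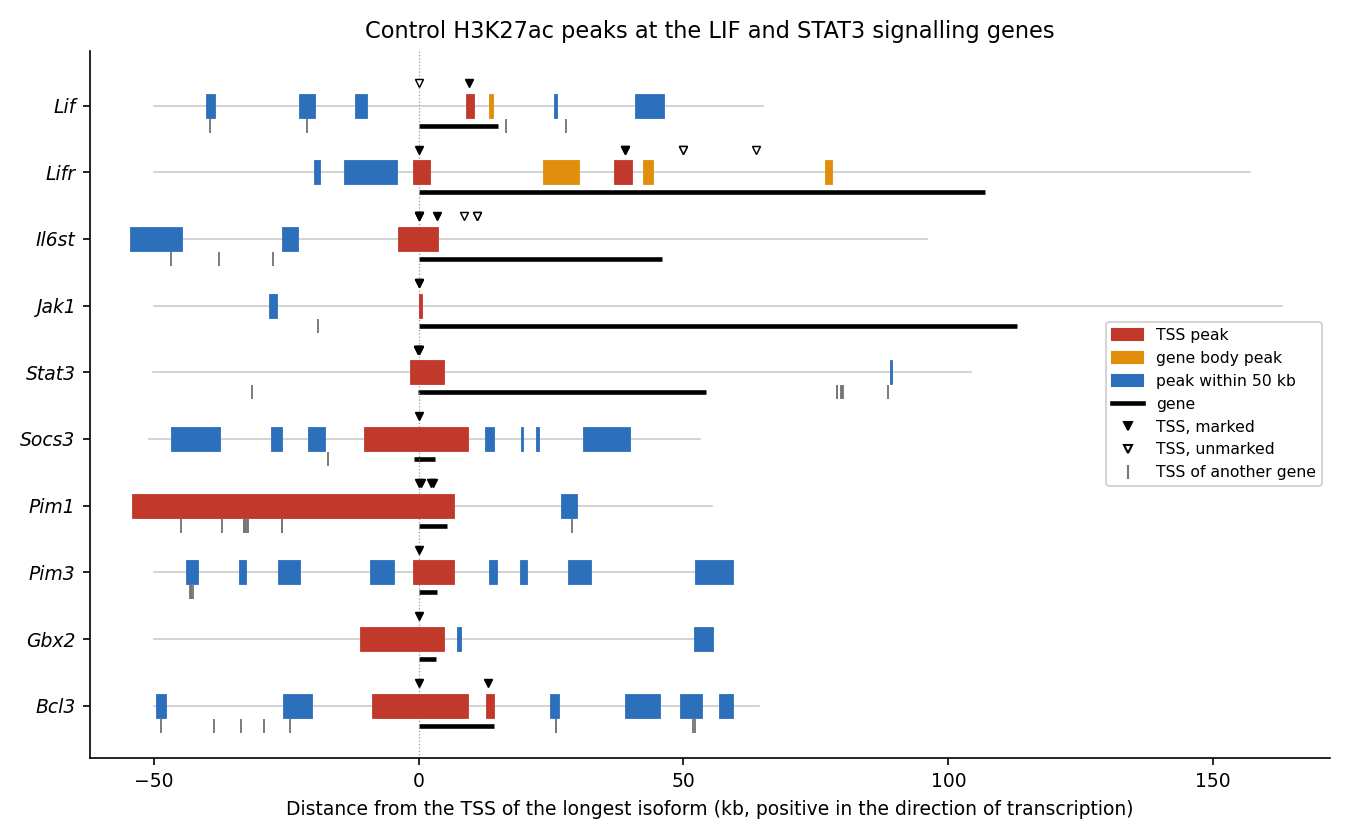
H3K27ac peaks of control mESCs around the 10 genes, drawn to scale by distance in kb from the TSS of each gene's longest isoform. Red, orange and blue boxes are TSS, gene body and nearby peaks, black bars the genes, filled and open triangles marked and unmarked TSSs, and grey ticks the TSSs of other genes; a peak covers all of Socs3, Pim1, Pim3 and Gbx2, whereas the peak at Jak1 is a thin line.

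Lif (ENSMUSG00000034394.14, GRCm38 chr11:4257557-4272514, + strand) had 1 marked TSS of 2. The first TSS, that of Lif-202, lay 8.90 kb from the nearest peak. The second, that of Lif-201, lies 9538 bp downstream inside the gene and fell in a peak of 1645 bp (chr11:4266454-4268098) that spans a coding exon and UTR of Lif. Lif is the only one of the 10 genes whose longest isoform had an unmarked TSS, a state found in 4.26% of marked protein-coding genes. A further peak of 817 bp lay in the Lif UTR, where the nearest TSS was that of the lincRNA Gm11959.

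The unmarked start of Lif was poor in CpG dinucleotides for its GC content. CpG observed/expected, the number of CG pairs divided by the number that the C and G content would give by chance order, was 0.181 within 500 bp of the Lif-202 TSS and 0.708 at the Lif-201 TSS, with GC contents of 59.7% and 63.3%. The 200 bases upstream of Lif-202 hold 4 CG, and the 200 upstream of Lif-201 hold 12. The first of these stretches is shown with the one upstream of Il6st-203, which holds 24 CG and lies wholly inside a peak, so that an unmarked and a marked start can be compared; their GC contents are 62.5% and 69.5%, and the pair was chosen after its values were seen. Both are intergenic, read on the gene's strand from the GRCm38 genome as chr11:4257357-4257556 (+) and chr13:112463870-112464069 (+), with each CG in capitals.
upstream of Lif-202: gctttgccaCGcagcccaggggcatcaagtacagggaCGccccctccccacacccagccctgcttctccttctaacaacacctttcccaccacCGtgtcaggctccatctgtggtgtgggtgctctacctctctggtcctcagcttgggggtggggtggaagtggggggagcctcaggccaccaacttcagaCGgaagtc
upstream of Il6st-203: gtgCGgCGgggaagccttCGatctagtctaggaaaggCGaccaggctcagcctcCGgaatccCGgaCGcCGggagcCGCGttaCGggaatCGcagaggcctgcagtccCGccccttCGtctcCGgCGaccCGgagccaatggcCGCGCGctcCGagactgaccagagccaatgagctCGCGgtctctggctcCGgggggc

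The neighbourhood of Lif also holds Osm, which encodes oncostatin M, another ligand of the family. The Osm TSS, at -21.1 kb from that of Lif-202, was marked by a peak of 3069 bp. Castor1, which encodes an arginine sensor upstream of mTORC1, was marked as well, by a peak of 1582 bp. Of the 7 peaks listed for Lif, 1 had a Lif TSS as its nearest TSS. The other peaks lay nearer to Castor1, Osm and the lincRNAs Gm11958 and Gm11959.

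Lifr (ENSMUSG00000054263.12, chr15:7090614-7197489, + strand), the receptor chain that binds LIF, had 7 peaks, and all 7 had a Lifr TSS as their nearest TSS. The first TSS was in a peak of 3273 bp, and an alternative start 38.9 kb downstream, shared within a few bases by Lifr-201 and Lifr-202, was in a peak of 3296 bp. Between and beyond them lay 3 intronic peaks of 6822, 1999 and 1387 bp. A peak of 9909 bp, the widest of all 35 nearby peaks, ended 4.13 kb before the gene. The other 3 TSSs of Lifr, at 5.65 to 13.0 kb from a peak, were unmarked.

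Il6st (ENSMUSG00000021756.12, chr13:112464070-112510086, + strand), the gene of gp130, had 1 TSS peak of 7692 bp, which ran 3.93 kb before and 3.76 kb after the first TSS. The peak held 4 of the gene's 7 TSSs. The other 3, between 8529 and 10976 bp downstream of the first, lay 4.77 to 7.22 kb from the nearest peak. Of its 2 nearby peaks, one of 9748 bp lay at the TSS of the lincRNA 2810403G07Rik, 44.7 kb from Il6st.

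Jak1 (ENSMUSG00000028530.14, chr4:101152367-101265282, - strand), the receptor-bound tyrosine kinase, had the narrowest TSS peak of the 10 genes. The peak of 481 bp began 90 bp downstream of the first TSS and ended 570 bp downstream of it. Among marked protein-coding genes, 98.1% had a TSS peak at least as wide. The TSS itself was outside the peak, so that Jak1 was no longer marked when the TSS had to lie inside a peak, when an overlap of 500 bp was required or when only peaks of at least 1 kb were used. Its 1 other peak, of 1493 bp, lay 26.8 kb away. The gene is 113 kb long, and 0.43% of it was inside peaks.

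Stat3 (ENSMUSG00000004040.16, chr11:100885098-100939540, - strand) had a TSS peak of 6330 bp that reached 1.62 kb before and 4.71 kb after the TSS, and all 4 of its TSSs were marked. Of the neighbouring STAT genes, Stat5b had a peak of 397 bp at its TSS, 34.7 kb from Stat3, and the TSSs of Stat5a were unmarked, the closest 8.92 kb from a peak. The Stat5b peak was the narrowest of the 51 and the only other peak within 50 kb of Stat3.

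Of the 5 genes downstream of STAT3, 4 had TSS peaks of at least 10 kb, beside 11.3% of marked protein-coding genes. Pim1 (ENSMUSG00000024014.8, chr17:29490753-29496112, + strand), which encodes a serine/threonine kinase that promotes survival, lay inside a peak of 60927 bp. The peak began 54.2 kb before the TSS and ended 6.75 kb after it, so that 88.9% of its width was upstream. Of marked protein-coding genes, 0.22% had a TSS peak at least as wide. The same peak holds every TSS of the lincRNA AC163629.2, between -44.8 and -25.7 kb from the Pim1 TSS, and which of the genes the acetylation belongs to cannot be told apart from positions.

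Socs3 (ENSMUSG00000053113.3, chr11:117966079-117970047, - strand), the feedback inhibitor of the pathway, lay inside a peak of 19654 bp, 10.4 kb before to 9.27 kb after its TSS. It had 7 nearby peaks. The 4 downstream of the gene, of 8779, 399, 405 and 1643 bp, were all nearest to the Socs3 TSS. The 3 upstream lay at or in Pgs1, which encodes an enzyme of cardiolipin synthesis, and the widest of them was 9341 bp.

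Bcl3 (ENSMUSG00000053175.17, chr7:19808462-19822770, - strand), which encodes an atypical IκB protein, had a peak of 18168 bp from 8.78 kb before to 9.39 kb after its first TSS. A second start 13.1 kb into the gene, that of Bcl3-203, was marked by a peak of 1379 bp, and 75.3% of the gene was inside the 2 peaks. None of its 6 nearby peaks was nearest to Bcl3. They lay closer to Bcam, Cblc and the lincRNAs Gm44658 and Gm44659.

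Gbx2 (ENSMUSG00000034486.8, chr1:89927956-89931179, - strand), a homeobox transcription factor, lay inside a peak of 15795 bp, of which 69.6% was before the TSS. Its 2 nearby peaks, of 770 bp and 3655 bp, were both nearest to Gbx2, although the second lies in an intron of Agap1. Pim3 (ENSMUSG00000035828.11, chr15:88862186-88865726, + strand), a kinase of the same family as Pim1, lay inside a peak of 7622 bp that reached 996 bp before the TSS and 6.63 kb after it. It had the most nearby peaks, 8, of which 4 were nearest to Pim3 and the rest to Alg12, Creld2 and Ttll8.

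Across the 10 genes, the widest TSS peak had a median of 7657 bp, beside 2225 bp in marked protein-coding genes (quartiles 1570 and 4990 bp). The ligand, the receptor chains, Jak1 and Stat3 spanned 481 to 7692 bp (median 3296 bp). The 5 downstream genes spanned 7622 to 60927 bp (median 18168 bp). The groups overlapped through a single pair, since Il6st was slightly wider than Pim3. A TSS peak of at least 10 kb was found at 4 of 10 genes, Socs3, Pim1, Gbx2 and Bcl3, beside 11.3% of marked protein-coding genes. The widest below that limit were Il6st and Pim3, and the narrowest above it was Gbx2. With peaks up to 4 kb apart joined, an alternative chosen after seeing the data, 6 genes reached 10 kb, Lifr and Pim3 being added, and the share of marked protein-coding genes was 17.4%.

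**Figure D2:**
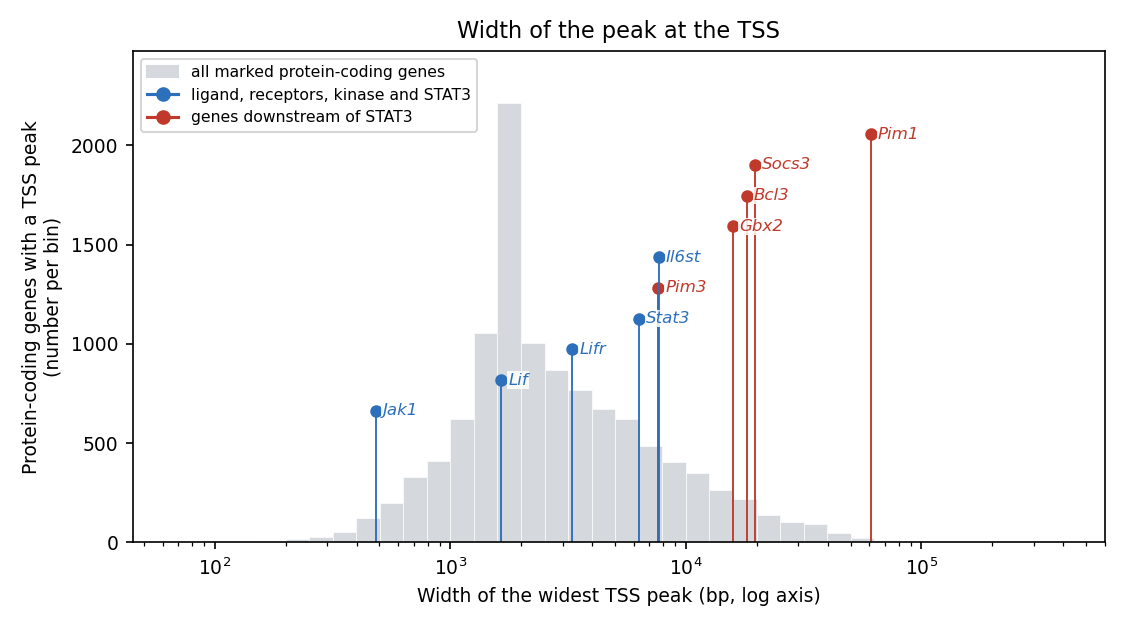
Width of the widest TSS peak in bp (log axis) for all 11149 marked protein-coding genes (grey, genes per bin) and for the 10 genes (lines topped by dots, whose heights only separate the names). Blue genes, from Jak1 at 481 bp to Il6st at 7692 bp, lie mostly to the left of the red genes downstream of STAT3, which end with Pim1 at 60927 bp.

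The whole gene lay inside 1 peak for 4 of 10, Socs3, Pim1, Pim3 and Gbx2, beside 5.27% of marked protein-coding genes. These genes are short, 3224 to 5360 bp, and the other 6 are 14309 to 112916 bp long. The part of gene length in this count was not tested.

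The share of each gene with 50 kb on both sides that lay inside peaks gave a similar order. The share counts the same TSS peaks, so this order is not independent of their widths. The share was 56.7% for Pim1, 43.7% for Socs3, 36.8% for Bcl3, 27.4% for Pim3 and 17.3% for Gbx2. It was 13.4% for both Lifr and Lif, 11.0% for Il6st, 4.36% for Stat3 and 0.93% for Jak1. All 5 downstream genes were above all 5 others, with Gbx2 and Lifr closest to each other. The window includes the gene, and the downstream genes are shorter, 3224 to 14309 bp against 14958 to 112916 bp. Counted in full, also beyond the flanks, the listed peaks spanned 27.7 kb for Lifr, 20.6 kb for Il6st and 20.2 kb for Gbx2. Those of Pim1, Socs3, Bcl3 and Pim3 spanned 34.1 kb or more. The part of gene length in this share was not tested. The median of the 10 was 15.4%, beside 3.88% for protein-coding genes and 8.44% for marked protein-coding genes, and 8 of 10 were above the latter value, the exceptions being Stat3 and Jak1. The excess depended on the flank. With 25 kb the median was 24.4%, beside 8.68% in marked protein-coding genes, and with 100 kb it was 9.50%, beside 8.09%. The share also counts peaks near other genes: of the 35 nearby peaks, 23 had the TSS of another gene as their nearest TSS and 11 lay within 1 kb of one.

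**Figure D3:**
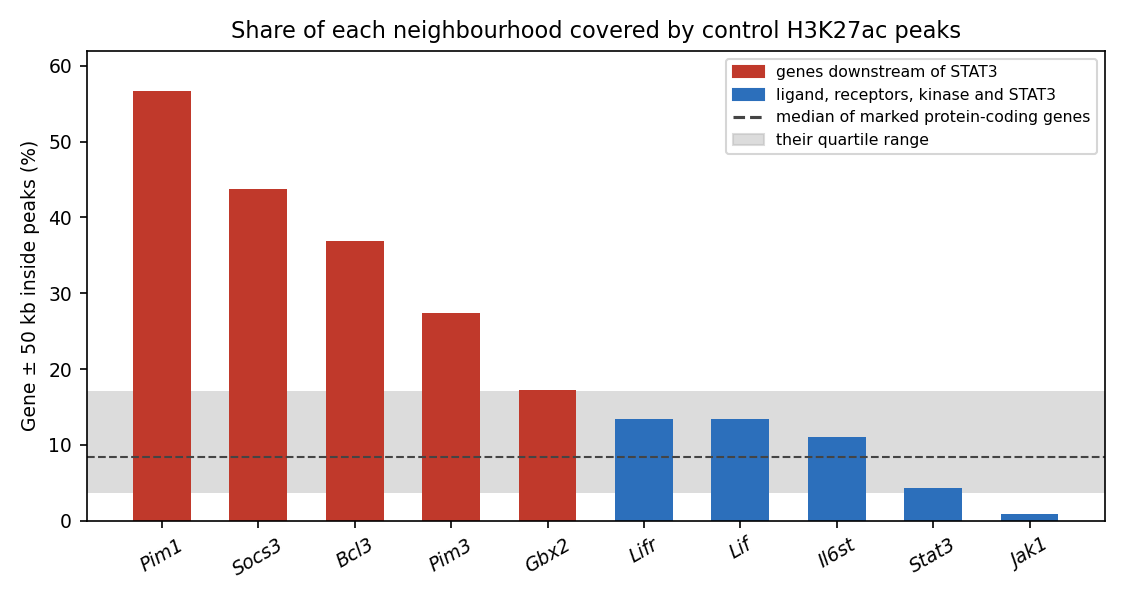
Percent of each gene and its 50 kb flanks that lies inside control H3K27ac peaks. Bars start at 0, and the dashed line is the median of marked protein-coding genes (8.44%). The grey band reaches from their lower to their upper quartile (3.67 to 17.1%). The red genes downstream of STAT3 stand above the blue genes, and Stat3 and Jak1 fall below the line. Each window also holds the gene, and the red genes are shorter than the blue genes.

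The 10 genes have 30 distinct TSSs, of which 23 were marked, beside 49.7% of all TSSs of protein-coding genes. The latter share includes genes without any marked TSS, whereas each of the 10 genes has at least 1. At marked TSSs the median CpG observed/expected was 0.789 (range 0.233 to 1.004), and at the 7 unmarked TSSs it was 0.310 (0.181 to 0.435). The medians over all TSSs of protein-coding genes were 0.738 where marked and 0.250 where not. The unmarked TSSs were 1 of Lif, 3 of Lifr and 3 of Il6st, several of which lie a few bases apart. Some marked starts were CpG-poor too. The first TSS of Lifr, Lifr-208, had 0.233, although the peak was there, whereas its alternative start 38.9 kb downstream had 0.982. Il6st-205 (0.321), Pim1-207 (0.349) and Pim1-203 (0.289) lay inside peaks that also held a CpG-rich TSS of the same gene.

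**Figure D4:**
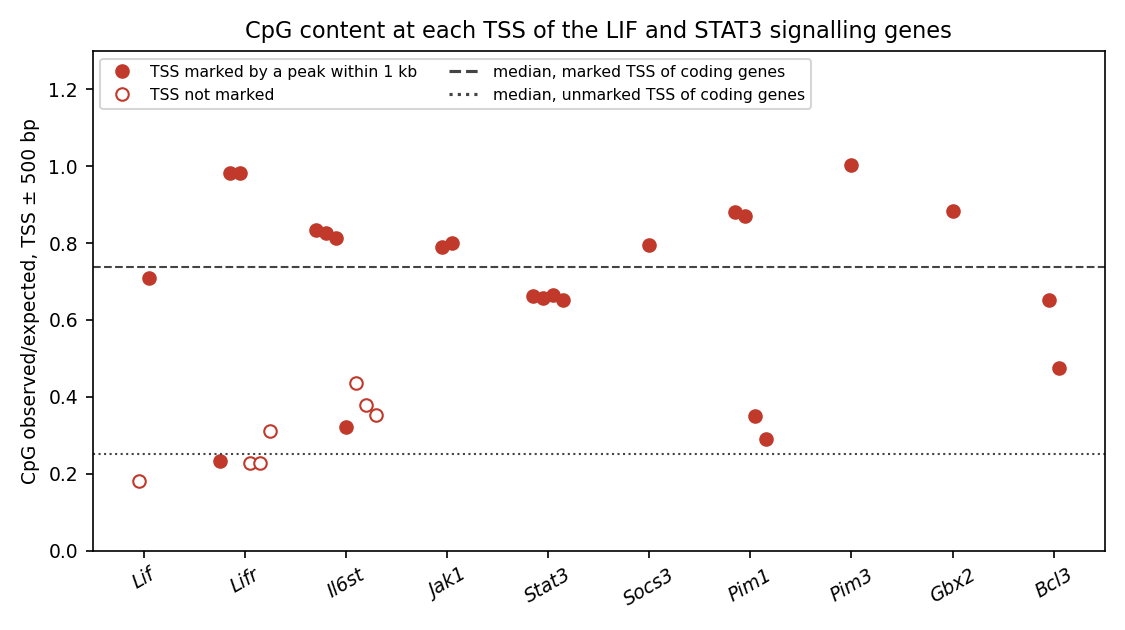
CpG observed/expected within 500 bp of each of the 30 TSSs, by gene. Filled circles are TSSs with a peak within 1 kb and open circles TSSs without one; the open circles, at Lif, Lifr and Il6st, lie between 0.181 and 0.435, and the dashed and dotted lines give the medians over marked (0.738) and unmarked (0.250) TSSs of protein-coding genes.

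Matches to the STAT palindrome were counted in the peaks. TTCNNNGAA reads the same on both strands, so that each site counts once, and every TTCCNGGAA, a narrower form of it, is also a TTCNNNGAA. The 51 peaks span 278.2 kb and hold 98 TTCNNNGAA, or 0.352 per kb, beside 0.317 per kb over all peaks of the list, with GC contents of 50.9% and 48.4%. TSS peaks held 0.349 and the other peaks 0.356 per kb. Socs3 had the most, 28 in 45.4 kb (0.616 per kb), followed in density by Lifr (0.505) and Gbx2 (0.445). Pim3 had 5 in 34.1 kb (0.147 per kb), Pim1 had 15 in 63.9 kb (0.235 per kb) and Jak1 had 0 in 1974 bp. The Osm peak near Lif held 5 of the 6 matches counted for Lif. The narrower TTCCNGGAA occurred 17 times, 0.0611 per kb beside 0.0373 per kb over all peaks. It was found in a peak of 8 of 10 genes, the exceptions being Lif and Jak1, beside 39.6% of marked protein-coding genes with their own peaks counted the same way. For Pim3 and Bcl3 it lay only in nearby peaks that were nearest to other genes. More sequence lay inside peaks around the 10 genes, a median of 15.4% beside 8.44% in marked protein-coding genes. The part of sequence length in these counts was not tested. TTCCNGGAA was in a TSS peak of 5 of 10 genes, beside 14.3% of marked protein-coding genes. The share was higher among wide peaks: of the 4 genes with a TSS peak of at least 10 kb, 3 held one there, beside 49.6% of protein-coding genes with a TSS peak of that width.

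**Figure D5:**
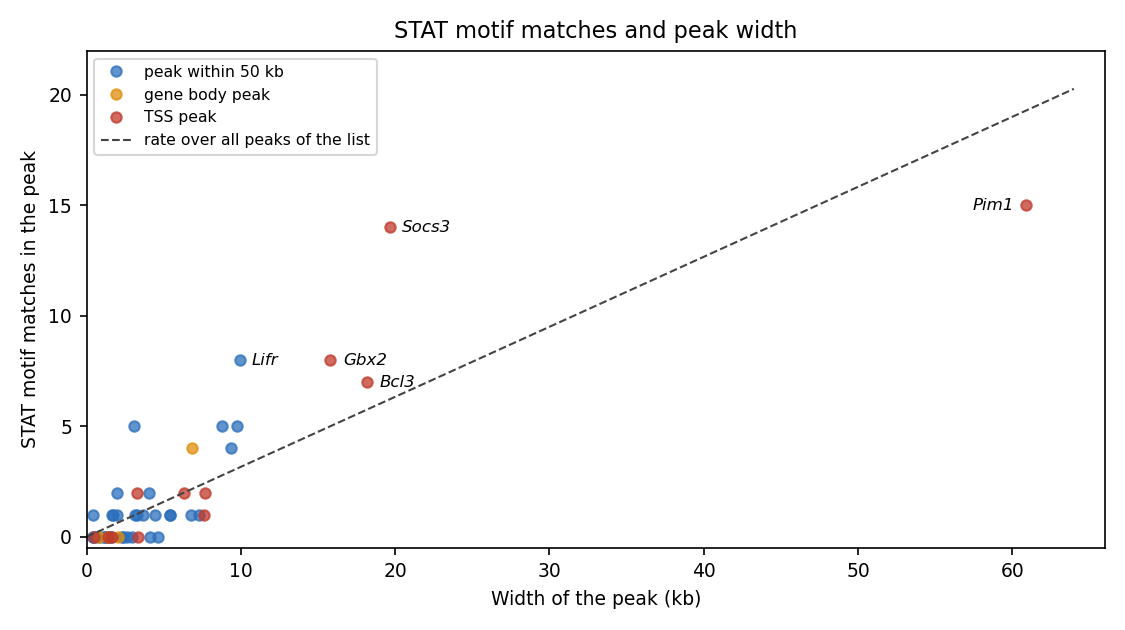
Number of TTCNNNGAA matches in each of the 51 peaks against the width of the peak in kb. The dashed line is the rate over all peaks of the list (0.317 per kb); the Socs3 TSS peak, with 14 matches in 19.7 kb, lies above it and the Pim1 TSS peak, with 15 in 60.9 kb, below it.

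The 9 TTCCNGGAA sites in TSS peaks are shown with 10 bases on either side, since STAT3 is known to favour this form of the palindrome. They were read from the GRCm38 genome on the strand of the gene, 5′ to 3′, with the palindrome in capitals. Socs3 holds 4, at chr11:117969229-117969257, chr11:117962613-117962641, chr11:117961420-117961448 and chr11:117960496-117960524 (-), centred at -57 bp, 6.56 kb, 7.75 kb and 8.68 kb from its TSS. The first is the only one of the 17 sites within 250 bp of the first TSS of its gene, and the other 3 lie beyond the end of Socs3 in intergenic sequence.
Socs3 at -57 bp: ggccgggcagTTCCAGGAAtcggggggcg
Socs3 at 6.56 kb: gcttccgctcTTCCTGGAAagggaatttc
Socs3 at 7.75 kb: atctccagctTTCCTGGAActcattctgt
Socs3 at 8.68 kb: aaggactcttTTCCAGGAAgctgccatgc

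Gbx2 holds 2 intergenic sites upstream, at chr1:89935879-89935907 and chr1:89939462-89939490 (-). Il6st holds 1 upstream at chr13:112460566-112460594 (+), Stat3 holds 1 in its own intron at chr11:100934883-100934911 (-), and Pim1 holds 1 in an intron of AC163629.2 at chr17:29446443-29446471 (+). The Pim1 peak, the widest of the 51, thus holds fewer of these sites than the Socs3 peak.
Gbx2 at -4.71 kb: tcttcacggcTTCCAGGAAggccttcaca
Gbx2 at -8.30 kb: gaccttctgcTTCCTGGAAccacaaaacc
Il6st at -3.49 kb: acctccctaaTTCCTGGAAttcatgtccc
Stat3 at 4.51 kb: gagggctagtTTCCGGGAAcaccagagca
Pim1 at -44.3 kb: tcggagcagaTTCCTGGAAaagacttctg

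In the RefSeq promoters of GRCm38.p6, windows from 250 bases before to 50 bases after a gene's start, all 10 genes have at least 1 entry and together 12. TTCNNNGAA was in 1 of the 12, that of Socs3, and in 8.30% of all 32851 promoters. The site starts at -154 from the RefSeq start of Socs3, which lies upstream of the one used above, at chr11:117969502-117969530 (-). A match says only that the letters are there.
Socs3 RefSeq promoter: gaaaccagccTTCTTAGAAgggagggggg

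Other genes of the pathway were counted in the same list. Of 57 such genes 42 were marked (73.7%, beside 51.0% of protein-coding genes), with a median TSS peak of 2519.5 bp (2225 bp in marked protein-coding genes). Of the 42 marked genes, 9 had a TSS peak of at least 10 kb, where 11.3% of marked protein-coding genes have one. The shares for each list below stand against these same 2 percentages. Of the family's other ligands 3 of 9 were marked, Osm, Ctf1 and Clcf1, with a median of 1691 bp. Of the other receptors 2 of 5 were marked, Il6ra and Il11ra1, the chains specific to interleukin-6 and interleukin-11. Unmarked were Cntfr, Il27ra and Osmr, and the last, the receptor of oncostatin M, lay 109 kb from the nearest peak.

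Among genes of proteins that act inside the cell, all 4 other kinases, Jak2, Jak3, Tyk2 and Pim2, had a TSS peak, and that of Jak3, 15619 bp, stood beside the 481 bp of Jak1. Of the inhibitors 14 of 15 were marked, Cish being the exception, with a median of 2182 bp. Socs1, the closest relative of Socs3, had a TSS peak of 2421 bp, and of the inhibitors only Pias2 (43773 bp) and Pias3 (36005 bp) had peaks wider than that of Socs3. All 5 adaptors that lead to ERK and PI3K, Shc1, Grb2, Gab1, Sos1 and Pik3r1, were marked, and Shc1 had the widest peak of them, 18174 bp.

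Of 13 further genes known as LIF or STAT3 targets in mESCs, 9 were marked (69.2%, beside 51.0% of protein-coding genes). They had a median TSS peak of 10901 bp, and 5 of the 9 reached 10 kb, as 11.3% of marked protein-coding genes do: Klf5 (79196 bp), Tfcp2l1 (71785 bp), Sgk1 (27606 bp), Zfp36 (11109 bp) and Myc (10901 bp). Klf5 and Tfcp2l1 encode transcription factors of the naive pluripotency network. Unmarked were Klf4, Pramel7, Sall4 and Junb, whose closest TSSs lay 14.1, 2.00, 9.12 and 8.14 kb from a peak. An unmarked target may have failed a peak filter of the authors, so it need not lack H3K27ac. The 44 other signalling genes without these targets had 33 marked, 4 peaks of at least 10 kb and a median of 2418 bp.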

How the data were processed

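H3K27ac ChIP-seq was made in 6 mESC samples, 2 per group. The only file used is the deposited peak list of control cells, pooled over both control samples: chromosome, start and end in base pairs of mm10 (GRCm38), without header, height or counts. The depth behind a peak is unknown here. According to the methods, the authors trimmed reads with Cutadapt, aligned them with bwa meme to a joint mouse and human reference, discarded duplicates (Picard 2.9.1) and poorly aligned reads (SAMtools 1.4), called peaks with LanceOtron, merged peaks up to 2 kb apart, and dropped peaks that were low or far from ATAC-seq summits. Merging widens peaks, and a gene without a peak may have failed a filter.

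From the list, overlaps of at least 1 bp were computed in Python 3.11.15 (numpy 2.4.6, pysam 0.24.0, matplotlib 3.10.9), with starts read as counted from 0 and printed from 1. TSSs came from protein_coding and lincRNA transcripts of GENCODE M21. A peak within 1 kb of a TSS was a TSS peak, otherwise one touching the gene a gene body peak, otherwise one within 50 kb a nearby peak. Distances start at the TSS of the longest isoform. The members and lists were chosen with earlier results of these data known. All 10 genes are named. Other pathway genes were named where 5 or fewer of a list were marked or unmarked or where they lie within 50 kb of a member, and those with TSS peaks of 10 kb or more, Socs1 and the neighbouring genes after their values were seen. The list of other STAT genes is not reported here. The scripts were tested on simulated peaks and planted motifs. Alternatives were other windows, isoforms, overlaps, distances, assignments, motifs and background genes.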

Additional observations from a re-analysis of the deposited data

How the results depend on the processing

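The number of genes marked at a TSS was 6 of 10 where the midpoint of a peak had to lie within 1 kb of a TSS, with Stat3, Pim1, Pim3 and Gbx2 lost, beside 38.2% of protein-coding genes. It was 9 or 10 under the other alternatives tried: Jak1 was lost with the TSS inside a peak, an overlap of 500 bp or peaks of at least 1 kb, and Lif with the longest isoform only. Of 55 alternatives to the main counts and medians, 45 stayed within 1.5 times. Gene body peaks numbered 7 in place of 4 with the longest isoform only, and 2 with peaks within 4 kb merged, which was chosen after seeing the data, as were the use of every annotated transcript and the midpoint for marked genes. With midpoints, 8 peaks were at a TSS in place of 12, 6 in a gene body and 35 nearby. Nearby peaks numbered 20 within 25 kb, 53 within 100 kb, and 12 where the nearest TSS had to be that of the gene, in place of 35. The median share inside peaks was 24.4% with 25 kb flanks and 9.50% with 100 kb, beside 8.68% and 8.09% in marked protein-coding genes. Around all protein-coding and lincRNA genes the median was 3.02%, and 8.64% for those marked. The narrower motif gave 0.0611 matches per kb. These alternatives count fewer or more bases, peaks or letters by construction.

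No paired analysis was possible because the list pools both control samples, and for the same reason no replicate could be left out. A stricter height threshold was not run, since the list has no heights; peaks of at least 1 kb stood in for it. Widths also depend on the merging distance.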

Other observations

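Gaps between peaks around the 10 genes show which peaks a merging distance somewhat above 2 kb would join. Gaps that the merging had already closed cannot be seen in the list. The closest pairs were 2054 bp apart at Lifr, 2411 bp at Gbx2, 2497 bp at Socs3 and 2758 bp at Lif. At the 50 kb limit, the farthest peaks inside were those at 48.6 kb from Pim3 and 48.7 kb from Gbx2, and the nearest outside were those at 51.9 kb from Bcl3 and 52.7 kb from Socs3.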
